A study of Mus musculus with 12 samples.

Results

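The receptors for prostaglandin E2, leukotriene B4, sphingosine 1-phosphate, oxysterols and extracellular nucleotides were followed across 4 groups of mouse T cells. The list held 10 receptor genes, Ptger2, Ptger3, Ptger4, Ltb4r1, S1pr1, S1pr4, Gpr183, P2ry14, P2rx7 and Adora2a, and a probe set belonged to it when the annotation gave it 1 of these symbols and no other. This rule found 14 probe sets of 45037 tested and 9 genes of 18193. Adora2a, an adenosine receptor gene, matched no probe set and was not analysed here. The members were listed by what the receptors bind, but with earlier results of these data known. Ptger2, Ptger3, Ltb4r1, S1pr1 and P2ry14 had been tabulated by the study from these same samples. Their differences, and the counts of passing receptor genes that they enter, are therefore not independent evidence.

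All cells came from spleens of female C57BL/6 mice, aged 8 to 12 weeks in the sample labels, and each RNA sample was hybridised to 1 Affymetrix whole-genome array. The 5 CD8+ NKT-like samples were CD8+ cells enriched by magnetic depletion of other cells and expanded on beads carrying anti-CD3 and anti-CD28 with a high dose of IL-2; their labels describe them as having suppression function. The 3 cultured CD4+ samples were flow-sorted CD4+ cells expanded by the same protocol, with less suppression according to their labels. The 2 naive CD8+ samples were taken fresh and the 2 activated CD8+ samples were stimulated with a low dose of the same antibodies in soluble form. Fresh CD4+ cells were not analysed here, so for the cultured CD4+ group culture and lineage cannot be told apart. The study describes the cultures as independent, whereas nothing says whether the 2 naive or the 2 activated samples came from separate mice, and their spread may be technical.

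Prostaglandin E2 acts on T cells through G protein-coupled receptors, of which the EP2 and EP4 types raise cyclic AMP and the EP3 type mainly lowers it. Leukotriene B4 and sphingosine 1-phosphate are lipids that direct the movement of lymphocytes, the latter guiding naive T cells out of lymphoid organs, and oxysterols position cells within those organs. Extracellular ATP and UDP-sugars are released by stressed or dying cells and are read by P2X channels and P2Y receptors.

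The values are log2 signals that the authors made with RMA, on a scale whose median over all probe sets and arrays was 6.3 and whose lowest value was 3.18. Each gene is represented by its brightest probe set. Differences were tested with limma on all 12 arrays, and those with q at or under 0.01 count as passing. Both CD8 coreceptor genes stood high in the NKT-like, naive and activated arrays, with means of 10.27 to 12.22 per array, and at 6.46 to 6.97 in the cultured CD4+ arrays. The naive arrays also had more signal of B cell and red cell precursor markers. Their mean over 11 B cell markers was 7.89 and 8.10. This mean was 5.94 to 6.33 in the NKT-like, 5.94 to 6.17 in the cultured CD4+ and 6.50 to 6.62 in the activated arrays. Of the 11 markers, 8 passed as lower in NKT-like cells than in naive ones, beside 6.73% of all genes. Over 8 red cell precursor markers the naive arrays measured 8.12 and 8.43 and all other arrays 5.97 to 6.31. The gap was smaller over 10 myeloid markers, at 6.58 and 6.81 in the naive arrays. This mean was 6.26 to 6.39 in the NKT-like, 6.06 to 6.38 in the cultured CD4+ and 6.13 to 6.54 in the activated arrays. Of the myeloid markers, 4 passed as lower and 1 as higher in NKT-like cells than in naive ones, beside 6.73% and 11.0% of all genes. The naive arrays also differed from each other, with a mean over 7 T cell markers of 10.95 in replicate 1 and 9.95 in replicate 2. In samples of many cells, fewer cells of a kind and less RNA per cell cannot be told apart.

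Relative to naive CD8+ cells, 4 of the 9 receptor genes were higher in the NKT-like group (P2ry14, Ptger3, Ltb4r1 and Ptger2) and 1 was lower (S1pr1). Of all genes 17.8% passed in this comparison, 11.0% higher and 6.73% lower. In the cultured CD4+ group 3 were higher (Ptger2, P2ry14, Ptger4) and 2 lower (S1pr1, Gpr183) than in naive cells, where 17.4% of all genes passed, 11.8% higher and 5.61% lower. Activation alone left Ptger2 higher and S1pr1 lower, 1 each of 9, beside 4.50% and 2.75% of all genes and 7.25% in either direction. These 3 comparisons share the 2 naive arrays, so their results stand side by side. Directly between the expanded groups, 4 of 9 passed where 3.07% of all genes did. P2ry14, Ptger3 and Ltb4r1, 3 of 9, were higher in the NKT-like group, beside 1.24% of all genes, and Ptger2 was lower, beside 1.83%. The same 3 genes were higher in the NKT-like than in the activated group, where 3.36% of all genes were higher, 0.967% lower and 4.33% passed. Ptger2 and P2ry14, 2 of 9, stood higher in cultured CD4+ cells than after activation, where 1.52% of all genes were higher, 0.324% lower and 1.84% passed. In both comparisons with activated cells the lower calls numbered 0 in limma, also at an unadjusted p below 0.05 and with Benjamini-Hochberg adjustment.

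The arrays of the groups compared did not overlap for 7 of the 9 genes between NKT-like and naive cells, beside 49.2% of all genes, for 5 between cultured CD4+ and naive cells, beside 53.8%, and for 6 between activated and naive cells, beside 45.7%. With groups this small such separation is common. Between NKT-like and cultured CD4+ cells it held for 6 of 9, beside 14.8% of all genes, and against activated cells for 5 in the NKT-like (23.1%) and 5 in the cultured CD4+ group (24.4%). The median log2 difference of the 9 genes from naive cells was 0.66 in the NKT-like, 0.26 in the cultured CD4+ and -0.15 in the activated group, beside -0.05 over all genes in each.

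**Figure D1:**
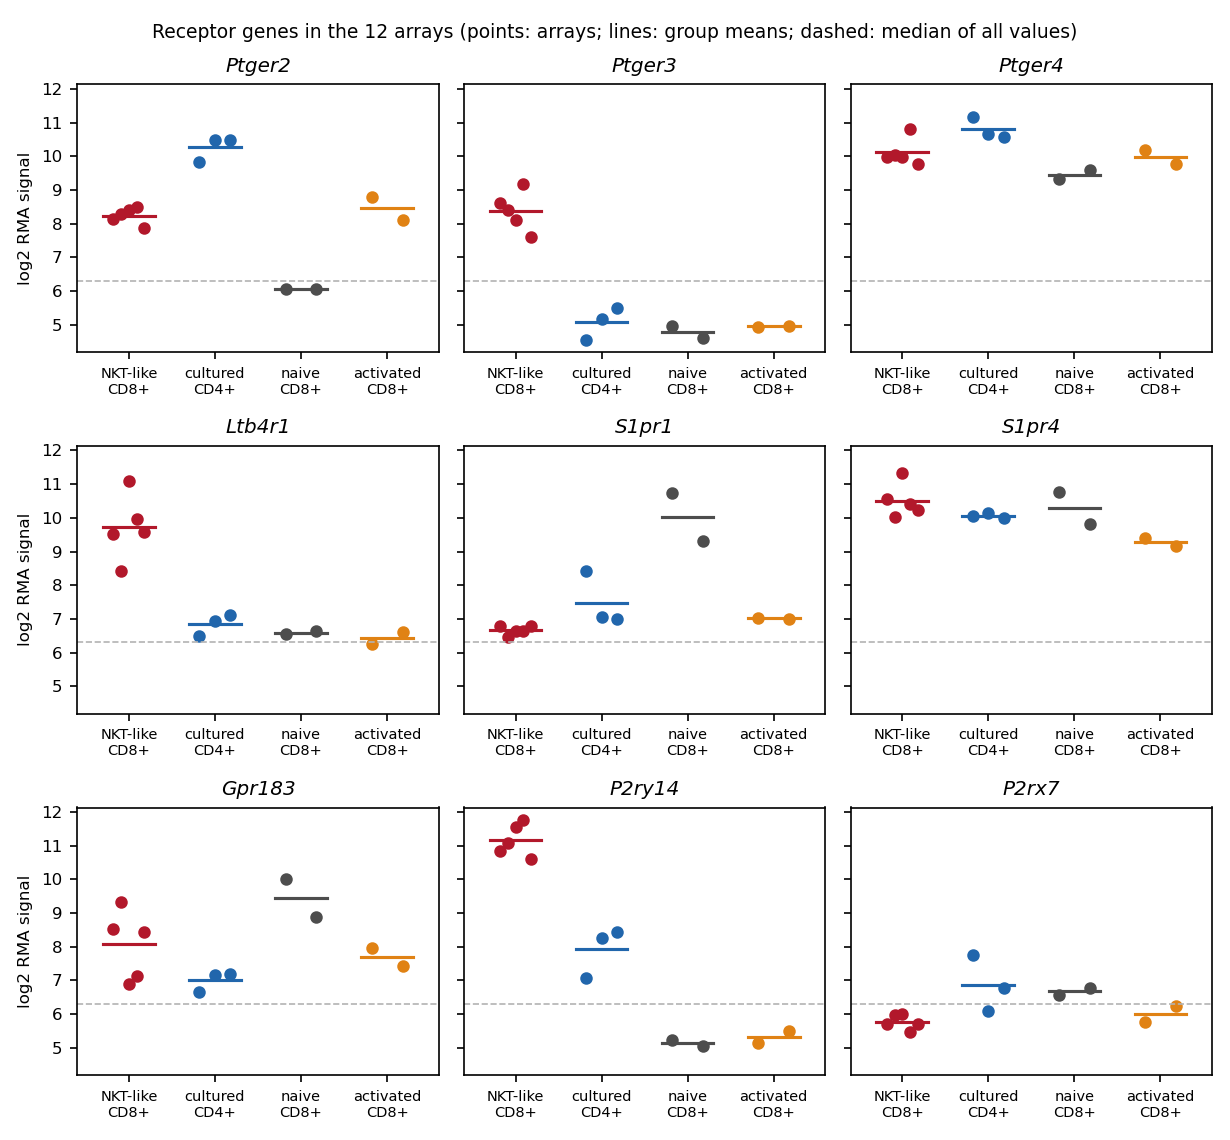
Signal of the 9 receptor genes in the 12 arrays. Each point is 1 array, each line a group mean, and the vertical axis is the log2 RMA signal, with the median of all values dashed. P2ry14, Ptger3 and Ltb4r1 stand highest in the 5 NKT-like arrays, Ptger2 in the 3 cultured CD4+ arrays and S1pr1 in the 2 naive arrays.

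Ptger2 encodes EP2, a prostaglandin E2 receptor coupled to cyclic AMP production. Its probe set, 1449310_at, read 6.06 and 6.07 in the naive arrays, 8.13, 8.28, 8.42, 8.50 and 7.88 in the NKT-like arrays, 8.80 and 8.13 in the activated arrays, and 9.84, 10.47 and 10.47 in the cultured CD4+ arrays. Every stimulated array was above both naive arrays, every cultured CD4+ array was above all others, and the NKT-like and activated arrays overlapped. Relative to naive cells Ptger2 was 4.52-fold higher in NKT-like cells (log2 difference 2.18 ± 0.23, SE, q = 4.9e-05), 18.3-fold higher in cultured CD4+ cells (4.20 ± 0.25, q = 9.9e-07) and 5.27-fold higher in activated cells (2.40 ± 0.27, q = 0.00032). The cultured CD4+ group was 4.05-fold above the NKT-like group (q = 0.00016). In the order of levels, naive, NKT-like, activated and cultured CD4+, the neighbours NKT-like and activated cells did not differ beyond their spread (log2 difference -0.22 ± 0.23, q = 0.4). The 3.48-fold difference of cultured CD4+ from activated cells (q = 0.0022) no longer passed without cultured CD4+ replicate 2 (q = 0.0142), cultured CD4+ replicate 3 (q = 0.0125) or activated replicate 2 (q = 0.0335), nor with this pair of groups fitted alone (q = 0.0348) or with array weights (q = 0.0132). With its pair fitted alone the activated to naive difference did not pass either (q = 0.0144). Where a group of 2 lost an array, the array left was taken to vary like the other groups.

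Ptger3 encodes EP3, the prostaglandin E2 receptor that signals mainly through inhibitory G proteins. Probe set 1450344_a_at read 8.63, 8.39, 8.11, 9.19 and 7.62 in the NKT-like arrays, against 4.56, 5.18 and 5.49 in the cultured CD4+, 4.98 and 4.63 in the naive, and 4.94 and 4.98 in the activated arrays. The NKT-like arrays lay apart from all others, and the other groups overlapped, below the median of all values. The NKT-like group was 12.0-fold above naive (3.59 ± 0.35, SE, q = 3.1e-05), 9.93-fold above cultured CD4+ (3.31 ± 0.31, q = 9.8e-05) and 10.8-fold above activated cells (3.43 ± 0.35, q = 0.00019), the last of which did not pass with array weights (q = 0.0146). Cultured CD4+ and activated cells differed from naive cells by 0.27 ± 0.39 (q = 0.26) and 0.16 ± 0.42 (q = 0.55). The probe sets of this gene disagreed: 1425251_at had group means of 4.96 to 5.30, and no comparison of it passed (log2 difference NKT-like minus naive -0.21 ± 0.15, q = 0.14). In the NKT-like group 1450344_a_at was the brighter, with a mean of 8.39 against 5.10. In naive cells it was the dimmer, at 4.80 against 5.30, and in activated cells also slightly the dimmer. In cultured CD4+ cells it measured 5.08 against 4.96. Its choice to represent Ptger3 thus rested on the NKT-like arrays, and the Ptger3 calls, counts and correlations use it. With the mean of both probe sets in its place, the NKT-like to naive ratio was 3.22.

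Ptger4 encodes EP4, the other cyclic AMP-raising prostaglandin E2 receptor, and had the narrowest range of these EP genes on its brighter probe set, 1424208_at. It read 9.31 and 9.61 in the naive, 10.17 and 9.76 in the activated, 9.99, 10.05, 9.98, 10.82 and 9.77 in the NKT-like and 11.16, 10.66 and 10.58 in the cultured CD4+ arrays. All arrays stood far above the median of all values, and both naive arrays were below every stimulated array. The cultured CD4+ group was 2.53-fold above naive cells (1.34 ± 0.28, SE, q = 0.003). NKT-like cells measured 1.58 times the naive level (0.66 ± 0.26, q = 0.037) and activated cells 1.42 times (q = 0.23), neither of which passed. Without cultured CD4+ replicate 2 (q = 0.0104), naive replicate 1 (q = 0.0295) or naive replicate 2 (q = 0.0215) the cultured CD4+ difference no longer passed, nor did it after quantile normalization of the deposited values (1.81-fold, q = 0.0239). The dimmer probe set, 1421073_a_at, had means of 6.54 in naive, 6.66 in activated, 7.93 in NKT-like and 8.41 in cultured CD4+ cells. Its cultured CD4+ to naive ratio was 3.64 (q = 0.0083), a call lost when any of 7 single arrays was left out, both naive arrays among them.

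Ltb4r1 encodes BLT1, the high-affinity leukotriene B4 receptor, which draws effector T cells and granulocytes to inflamed tissue. Probe set 1420407_at read 9.53, 8.42, 11.09, 9.98 and 9.59 in the NKT-like arrays. It read 6.48, 6.95 and 7.11 in the cultured CD4+, 6.54 and 6.64 in the naive, and 6.26 and 6.61 in the activated arrays. All NKT-like arrays were above every other array, with the widest spread of the groups for this gene (SD 0.96), and the other groups overlapped near the median of all values. The NKT-like group was 8.77-fold above naive (3.13 ± 0.51, SE, q = 0.00068), 7.33-fold above cultured CD4+ (2.87 ± 0.44, q = 0.003) and 9.76-fold above activated cells (3.29 ± 0.51, q = 0.0022). Neither cultured CD4+ (0.26 ± 0.55, q = 0.32) nor activated cells (-0.15 ± 0.60, q = 0.58) differed from naive cells beyond the error. The first call was lost without naive replicate 2 (9.06-fold, q = 0.0161). The second was lost without cultured CD4+ replicate 1 (q = 0.0131), 2 (q = 0.0174) or 3 (q = 0.0151), and the third without activated replicate 1 (q = 0.012) or 2 (q = 0.0228), with the pair of groups fitted alone (q = 0.0185) or with array weights (q = 0.125).

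S1pr1 encodes the sphingosine 1-phosphate receptor that lets naive T cells leave lymph nodes and thymus. Probe set 1423571_at read 10.73 and 9.30 in the naive arrays, 6.80, 6.47, 6.66, 6.63 and 6.80 in the NKT-like, 8.41, 7.05 and 6.99 in the cultured CD4+, and 7.04 and 6.99 in the activated arrays. Both naive arrays were above all stimulated arrays, and the NKT-like arrays were the lowest and did not overlap with any other group. S1pr1 was 10.1-fold lower in NKT-like (-3.34 ± 0.40, SE, q = 9.9e-05), 5.77-fold lower in cultured CD4+ (-2.53 ± 0.43, q = 0.00095) and 7.98-fold lower in activated cells (-3.00 ± 0.47, q = 0.0019) than in naive cells. The NKT-like group did not differ from the cultured CD4+ group (0.569 of its level, q = 0.25) or the activated group (q = 0.43) beyond the error. The NKT-like call held without any single array, at a ratio to naive cells of 0.162 without naive replicate 1 and 0.0602 without naive replicate 2, beside 0.0986 with all arrays. Both other differences also shrank without naive replicate 1 and grew without replicate 2. The cultured CD4+ call was lost without naive replicate 1 (3.52-fold lower, q = 0.0123), and the activated call without naive replicate 1 (q = 0.0139) or activated replicate 1 (q = 0.0155), with its pair of groups fitted alone (q = 0.0291) or with array weights (q = 0.0175). Naive replicate 2, the array with the lower T cell marker mean, was also the lower naive array for S1pr1, and the part of other spleen cells in the naive signal was not tested.

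S1pr4, a sphingosine 1-phosphate receptor found mainly on blood cells, stayed high in all groups. It read 10.57, 10.02, 11.31, 10.40 and 10.23 in the NKT-like, 10.06, 10.15 and 9.998 in the cultured CD4+, 10.76 and 9.83 in the naive, and 9.39 and 9.18 in the activated arrays. The activated arrays were the lowest and overlapped with no group, but no difference passed: activated cells had 0.496 of the naive level (-1.01 ± 0.37, SE, q = 0.074) and NKT-like cells 2.33 times the activated level (1.22 ± 0.31, q = 0.026). NKT-like and naive cells differed by 0.21 ± 0.31 (q = 0.27). The order of the groups was not that of S1pr1.

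Gpr183, also known as EBI2, is the receptor for 7-alpha,25-dihydroxycholesterol, which positions B cells, dendritic cells and T cells in spleen and lymph nodes. Probe set 1437356_at read 10.01 and 8.89 in the naive, 7.98 and 7.43 in the activated, 6.66, 7.17 and 7.20 in the cultured CD4+, and 8.53, 9.33, 6.89, 7.14 and 8.44 in the NKT-like arrays. The NKT-like arrays ranged from 6.89 to 9.33, from near the cultured CD4+ level in replicates 3 and 4 to above naive replicate 2 in replicate 2. Cultured CD4+ cells were 5.43-fold below naive cells (-2.44 ± 0.63, SE, q = 0.0077). NKT-like cells measured 0.383 of the naive level (-1.38 ± 0.58, q = 0.043) and activated cells 0.297 (q = 0.089), which did not pass. On the dimmer probe set, 1457691_at, both expanded groups were below naive cells, the NKT-like at 0.528 (q = 0.0069) and the cultured CD4+ at 0.394 of the naive level (q = 0.0017).

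These Gpr183 calls were among the least stable. On the brighter probe set the cultured CD4+ difference was lost without NKT-like replicate 1 or 5 (both q = 0.0105), without cultured CD4+ replicate 1, 2 or 3 (q = 0.0137, 0.0253 and 0.0224), and without naive replicate 1 or 2 (q = 0.0684 and 0.0262), as well as with Benjamini-Hochberg adjustment (adjusted p = 0.0188) and with median centring (q = 0.0148). On the dimmer probe set the NKT-like call was lost without any of 6 arrays (q up to 0.099) and the cultured CD4+ call without cultured CD4+ replicate 2 or either naive array (q up to 0.026). B cell markers were highest in the naive arrays, as was the group mean of Gpr183, and their part in the Gpr183 signal was not tested.

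P2ry14, a receptor for UDP-glucose and other UDP-sugars, had the largest difference of the list. Probe set 1424733_at read 10.84, 11.09, 11.54, 11.77 and 10.60 in the NKT-like, 7.07, 8.27 and 8.44 in the cultured CD4+, 5.23 and 5.05 in the naive, and 5.14 and 5.49 in the activated arrays. The NKT-like arrays were above all others, the cultured CD4+ arrays lay between, and the naive and activated arrays overlapped below the median of all values. P2ry14 was 65.4-fold higher in NKT-like cells than in naive ones (6.03 ± 0.38, SE, q = 1.2e-06), with 58.9- to 72.2-fold when any single array was left out. It was 6.92-fold higher in cultured CD4+ cells than in naive ones (2.79 ± 0.41, q = 4e-04) and 1.13 times the naive level in activated cells (q = 0.54). NKT-like cells were 9.44-fold above cultured CD4+ (3.24 ± 0.33, q = 0.00018) and 57.8-fold above activated cells (q = 6.9e-06). The order was thus NKT-like, cultured CD4+, then activated and naive cells, whose levels did not differ beyond their spread. Cultured CD4+ cells were 6.13-fold above activated cells (q = 0.0042), a call lost without cultured CD4+ replicate 2 (q = 0.0257) or 3 (q = 0.0199) or activated replicate 1 (q = 0.0119) or 2 (q = 0.0339), with the pair fitted alone (q = 0.0323) or with array weights (q = 0.0341). The naive and activated signals, at 5.05 to 5.49, lie in the low range where background is part of the value, so the size of the folds against them depends on that background.

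P2rx7 encodes the ATP-gated channel P2X7, which opens under high extracellular ATP and can kill T cells. Its brightest probe set, 1439787_at, read 5.70, 5.97, 6.01, 5.47 and 5.70 in the NKT-like, 7.76, 6.09 and 6.78 in the cultured CD4+, 6.58 and 6.77 in the naive, and 5.78 and 6.25 in the activated arrays. All NKT-like arrays were below the median of all values and below every naive and cultured CD4+ array. No comparison passed: the NKT-like group had 0.533 of the naive level (-0.91 ± 0.34, SE, q = 0.032) and 0.465 of the cultured CD4+ level (-1.11 ± 0.30, q = 0.057). The former passed without cultured CD4+ replicate 1 (q = 0.00496), the array that read 7.76, and when the NKT-like and naive groups were fitted alone (q = 0.00208). The other probe sets, 1422218_at and 1419853_a_at, had group means of 5.66 to 5.90 and 4.40 to 4.86, and no comparison of them passed, so signal near the background limits what can be said of this gene.

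**Figure D2:**
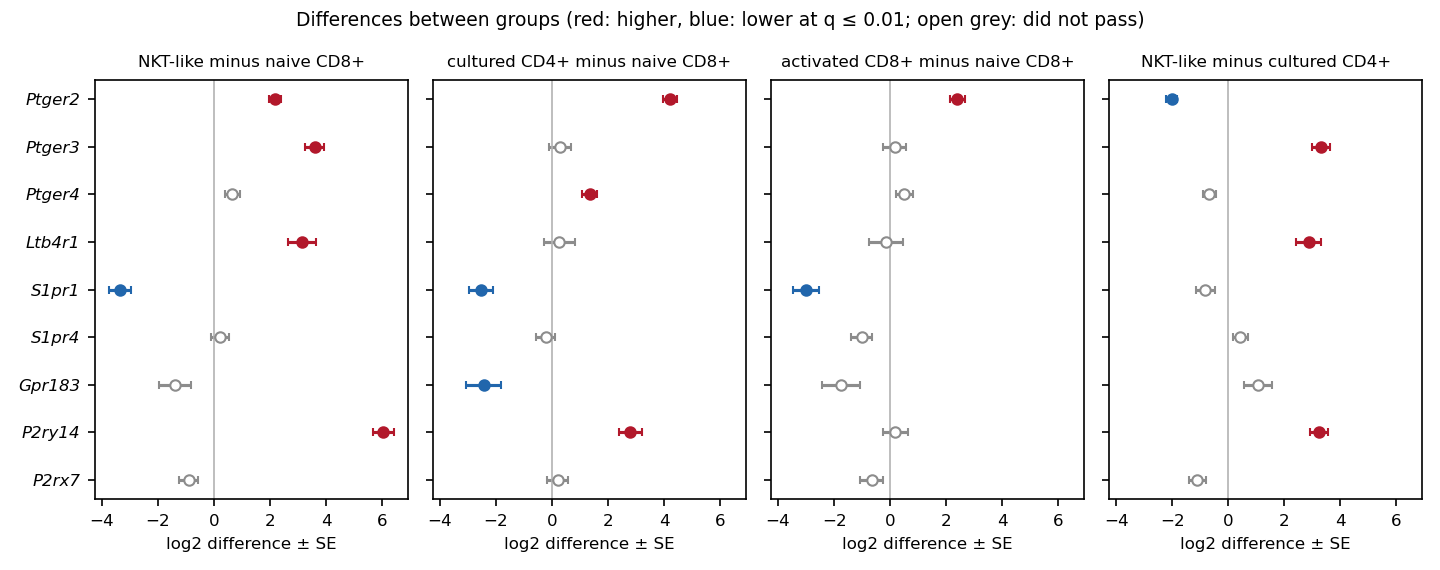
Log2 differences of the 9 receptor genes in 4 comparisons, with the standard error of the fit as bars. Filled red points were higher and filled blue points lower at q of 0.01 or less, and open grey points did not pass. P2ry14 is farthest to the right in NKT-like minus naive cells, at 6.03, and S1pr1 is lower in all 3 comparisons with naive cells.

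P2ry14, Ptger3 and Ltb4r1 shared a pattern over the 12 arrays. Their Pearson correlations were 0.92 for Ptger3 with P2ry14, 0.91 for Ptger3 with Ltb4r1 and 0.90 for Ltb4r1 with P2ry14, and Ptger2 followed Ptger4 at 0.83. These describe 12 points that fall into 4 groups, and were not tested. Over the 12830 other genes whose highest group mean was above the median, those most like P2ry14 were Ifitm1 (r = 0.99), an interferon-induced membrane protein gene, Gzmd (0.99), a granzyme gene, and Anxa1 (0.99), which encodes annexin A1. Those most like Ptger3 were Fgl2 (0.98), a secreted fibrinogen-like protein gene, Pik3cg (0.98), a phosphoinositide 3-kinase subunit gene that acts below G protein-coupled receptors, and Rnf13 (0.97). Those most like Ltb4r1 were H2-Q10, Selenon and Wdtc1 (0.98, 0.98 and 0.97).

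The remaining receptors followed other genes. Il12rb2, the signalling chain of the IL-12 receptor, was most like Ptger2 (r = 0.99), followed by Adprm and Snx25 (both 0.97). Rb1, the retinoblastoma gene, was most like Ptger4 (0.97), followed by Plin2 and Lipo3 (both 0.95). S1pr1 followed Igfbp4, Il6ra, the IL-6 receptor chain, and Axin2, a Wnt response gene (all 0.98). S1pr4 was most like Atp2a3 (0.96), P2rx7 most like Oaf (0.95) and Gpr183 most like Il18r1 (0.90), the lowest of these leading values.

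To set these 3 genes beside each other in sequence as well as in signal, their promoter letters are shown from RefSeq (build GRCm38.p6), 250 bases ending just before an annotated start and written along the gene's strand. Capitals mark each CACCC, the core that Krüppel-like factors bind, on either strand (GGGTG on the other). The windows are chr14:55765712-55765961 on the plus strand for Ltb4r1, chr3:59131329-59131578 on the minus strand for P2ry14 and chr3:157566626-157566875 on the plus strand for Ptger3.
Ltb4r1: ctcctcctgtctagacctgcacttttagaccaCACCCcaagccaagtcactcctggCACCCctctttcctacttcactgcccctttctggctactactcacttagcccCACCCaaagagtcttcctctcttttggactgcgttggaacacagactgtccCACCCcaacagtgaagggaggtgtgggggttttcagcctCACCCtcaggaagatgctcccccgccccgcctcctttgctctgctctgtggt
P2ry14: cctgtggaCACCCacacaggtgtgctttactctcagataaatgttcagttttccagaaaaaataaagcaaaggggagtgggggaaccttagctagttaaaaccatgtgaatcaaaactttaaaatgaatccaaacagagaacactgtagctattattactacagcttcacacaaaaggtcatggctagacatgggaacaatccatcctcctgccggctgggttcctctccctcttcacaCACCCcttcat
Ptger3: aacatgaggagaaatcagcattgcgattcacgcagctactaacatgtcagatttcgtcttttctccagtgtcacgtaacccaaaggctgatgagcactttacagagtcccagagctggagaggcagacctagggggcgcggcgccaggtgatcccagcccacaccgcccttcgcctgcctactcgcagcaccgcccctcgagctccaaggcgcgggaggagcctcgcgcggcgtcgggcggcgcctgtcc
CACCC stood 5 times before Ltb4r1, 2 times in this P2ry14 window and 0 times before Ptger3, and 52.0% of the 32851 windows of the same length held it. P2ry14 has 4 annotated starts, and the other windows held it 0, 1 and 0 times. The window with 1 overlaps the one shown, and its CACCC is a site of the shown window. The window shown is the one of the 4 with the most matches. The core was thus not common to the windows of these 3 genes. The cyclic AMP response core TGACG, the T-box core GGTGTGA and the STAT spacing TTCNNNGAA, found in 17.8%, 3.33% and 7.02% of all windows, were searched on both strands as well. They were in none of these 3 windows, and of the 12 windows of the 8 receptor genes with an entry 1 held a GGTGTGA, before P2rx7, where it overlaps a GGGTG. A match of letters is no evidence of binding, and its absence says only that these letters are not in the window.

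P2ry14 lies in a row of related receptor genes, and the genes with a probe set next to it in the GRCm38.p6 annotation were therefore read as well, after values for P2ry12 and P2ry13 had been seen. Gpr171, a G protein-coupled receptor gene on one side, was 4.59-fold higher in NKT-like (2.20 ± 0.49, SE, q = 0.0039) and 7.44-fold higher in cultured CD4+ cells than in naive ones (2.90 ± 0.54, q = 0.00152). Both of these calls were lost without naive replicate 2 (q = 0.11 and 0.035). P2ry13 and P2ry12, ADP receptor genes on the other side, were higher in NKT-like cells than in naive ones by 1.04 ± 0.27 (q = 0.00771) and 1.35 ± 0.24 (q = 0.00127) on the log2 scale. In cultured CD4+ cells they differed from naive cells by -0.32 ± 0.29 (q = 0.19) and 0.64 ± 0.27 (q = 0.0448). Med12l, which overlaps P2ry14, differed by 0.03 ± 0.12 in NKT-like cells (q = 0.352), and of the genes farther out Siah2 differed by 1.06 ± 0.32 (q = 0.014) and the rest by -0.24 to 0.00, none of which passed. The P2ry12 call was lost without naive replicate 1 or 2 (q from 0.012 to 0.022), and that of P2ry13 without any of 8 arrays.

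**Figure D3:**
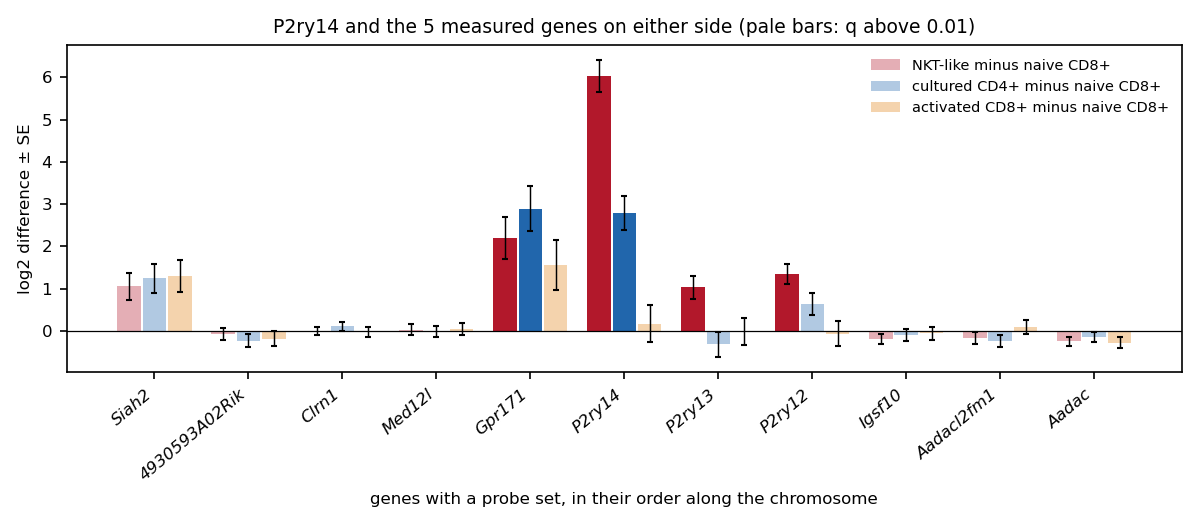
Log2 differences from naive CD8+ cells for P2ry14 and the 5 measured genes on either side, in their order along the chromosome. Bars are group differences with standard errors, and pale bars did not pass. P2ry14 at 6.03 is the highest bar in NKT-like cells, with Gpr171, P2ry13 and P2ry12 at 2.20, 1.04 and 1.35 beside it.

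The other genes of each receptor's pathway were read from 11 lists of 3 to 18 measured genes. The counts for NKT-like against naive cells stand beside 11.0% of all genes higher and 6.73% lower. For cultured CD4+ against naive cells these shares were 11.8% and 5.61%. Among 6 further prostanoid receptors, Ptgir, the prostacyclin receptor gene, was the clearest. It read 7.34, 8.24 and 8.35 in the cultured CD4+ arrays and 4.36 to 4.99 in all others. That made it 11.1-fold higher in cultured CD4+ cells than in naive ones (3.48 ± 0.28, SE, q = 8e-06) and 10.1-fold lower in NKT-like cells than in the cultured CD4+ group (q = 7.3e-06), in every fit without 1 array. Like Ptger2, another receptor that raises cyclic AMP, it was thus highest in cultured CD4+ cells. Tbxa2r, the thromboxane receptor gene, was lower than in naive cells in all groups, 2.55-fold in NKT-like (q = 0.0024), 4.72-fold in cultured CD4+ (q = 0.00024) and 4.01-fold in activated cells (q = 0.0024). The first and last of these were lost without naive replicate 1 or 2, and the last also without activated replicate 1.

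Of 11 genes of prostanoid synthesis and breakdown, 1 was higher and 1 lower in NKT-like cells than in naive ones. Ptgis, which makes prostacyclin, was 2.11-fold higher (q = 0.0054, lost without NKT-like replicate 1 or 2 or either naive array). Pla2g4a, the phospholipase that releases arachidonic acid, was 1.91-fold lower (q = 0.00075) and 2.03-fold lower in cultured CD4+ cells (q = 0.00076), at group means of 3.86 to 4.88 near the floor of the scale, and both calls were lost without naive replicate 2. Of 9 genes of the leukotriene and lipoxin pathway 2 were higher and 1 lower in NKT-like cells. Cysltr1, a cysteinyl leukotriene receptor gene, was 3.27-fold higher in NKT-like (1.71 ± 0.26, SE, q = 0.00044) and 4.79-fold higher in cultured CD4+ cells than in naive ones (2.26 ± 0.28, q = 0.00014), without any single array too, and so was not limited to NKT-like cells as Ltb4r1 was among these groups. Lta4h, the enzyme that makes leukotriene B4, was 2.18-fold higher in NKT-like cells (q = 0.0069, lost without any of 6 arrays), and Alox5ap, which presents arachidonic acid to 5-lipoxygenase, was 1.83-fold lower (q = 0.00029, lost without naive replicate 2). The part of other spleen cells in the naive signal of Alox5ap was not tested.

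Of 10 other genes of the sphingosine 1-phosphate pathway, 1 was higher and 2 lower in NKT-like cells than in naive ones, and 1 higher and 3 lower in cultured CD4+ cells. Sphk1, a kinase that makes the lipid, was lower in all stimulated groups, 2.06-fold in NKT-like (-1.04 ± 0.10, SE, q = 2.8e-05), 1.79-fold in cultured CD4+ (q = 2e-04) and 1.85-fold in activated cells (q = 0.00092), in every fit without 1 array. Sgpl1, the lyase that breaks it down, was 2.29-fold higher in NKT-like cells (q = 0.0069, lost without any of 7 arrays). S1pr2 was 2.15-fold higher in cultured CD4+ cells (q = 0.0032, lost without cultured CD4+ replicate 2 or 3 or either naive array), and Mfsd2b, a transporter of the lipid known from red cells and platelets, was 1.59-fold lower in NKT-like (q = 0.0045) and 1.61-fold lower in cultured CD4+ cells (q = 0.0062), both lost without either naive array, the first also without NKT-like replicate 4 and the second without cultured CD4+ replicate 2 or 3. Red cell precursor markers stood highest in the naive arrays as well, and their part was not tested.

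Of 10 lysophospholipid and proton receptors 2 were lower in NKT-like cells than in naive ones. Lpar6, a lysophosphatidic acid receptor gene, was lower in every stimulated group, 2.84-fold in NKT-like (-1.51 ± 0.21, SE, q = 0.00031), 6.26-fold in cultured CD4+ (-2.65 ± 0.23, q = 1.6e-05) and 3.69-fold in activated cells (q = 9e-04). The NKT-like call was lost without naive replicate 2 (q = 0.012) and the activated call without it or activated replicate 1. Gpr174, a lysophosphatidylserine receptor gene, read 6.20 to 6.98 in the NKT-like arrays and 7.04 to 8.31 in all others. It was 3.17-fold lower than in naive cells (-1.67 ± 0.23, q = 0.00023), in every fit without 1 array, and 2.59-fold lower than in cultured CD4+ cells (q = 0.0019, lost without cultured CD4+ replicate 3). Lpar3 was 2.31-fold higher in cultured CD4+ cells than in naive ones (q = 0.0013, lost without either naive array). Of the 3 enzymes of the Gpr183 ligand, Hsd3b7 was 1.79-fold lower (q = 0.00067, lost without naive replicate 1) and Ch25h 1.27-fold lower (q = 0.0087, lost without any of 9 arrays) in NKT-like cells than in naive ones.

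Of 13 further purine receptors, the P2ry14 neighbours P2ry12 and P2ry13 were the 2 that were higher in NKT-like cells than in naive ones, and P2rx4, an ATP-gated channel gene, was 1.71-fold lower (q = 0.0027, lost without either naive array). In the turnover of nucleotides, 3 of 8 genes were higher and 1 lower in NKT-like cells. Entpd1, which encodes CD39, the ectoenzyme that degrades ATP and ADP, read 8.49, 9.12, 9.51, 9.28 and 9.86 in the NKT-like and 7.08 and 7.16 in the naive arrays. It was 4.39-fold higher (2.13 ± 0.42, SE, q = 0.002), a call lost without naive replicate 1 or 2 (q from 0.021 to 0.035). Ugp2, which makes UDP-glucose, the ligand of P2ry14, was 2.10-fold higher in NKT-like (q = 0.0024, lost without either naive array) and 2.90-fold higher in cultured CD4+ cells than in naive ones (1.54 ± 0.24, q = 0.00053, in every fit without 1 array). Adk, adenosine kinase, read 10.72, 10.34 and 10.34 in the cultured CD4+ and 7.92 to 8.33 in the NKT-like arrays, and was 5.09-fold lower in NKT-like cells than in the cultured CD4+ group (q = 1.3e-05). Both expanded groups were above naive cells for Adk. Over the fits without 1 array it was 7.75- to 9.44-fold higher in cultured CD4+ and 1.52- to 1.85-fold higher in NKT-like cells. The NKT-like call was lost without any of 7 arrays. Dpp4, which encodes the cell-surface peptidase CD26, was 4.15-fold lower in NKT-like (q = 0.0019, lost without either naive array) and 6.46-fold lower in cultured CD4+ cells than in naive ones (q = 0.00072, lost without naive replicate 1).

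Downstream, 2 of 18 cyclic AMP signalling genes were higher and 5 lower in NKT-like cells than in naive ones, beside 11.0% and 6.73% of all genes. Crem, an inducible cyclic AMP response gene, rose in each stimulated group, 3.68-fold in NKT-like (1.88 ± 0.27, SE, q = 0.00032), 5.51-fold in cultured CD4+ (2.46 ± 0.29, q = 0.00011) and 3.12-fold in activated cells (q = 0.0054), the last lost without cultured CD4+ replicate 2, either naive array or activated replicate 1. Pde4d, which degrades cyclic AMP, read 5.23 to 5.89 in the NKT-like arrays, below all other arrays at 6.29 to 7.54, and was 3.40-fold lower than in naive (-1.76 ± 0.19, q = 5.3e-05) and 2.62-fold lower than in cultured CD4+ cells (q = 0.00056), in every fit without 1 array. Pde4b was 3.95-fold lower in NKT-like cells than in naive ones (q = 0.0041, lost without either naive array). Prkar2b, a regulatory subunit of protein kinase A, fell 3.16-, 3.37- and 3.75-fold in the NKT-like, cultured CD4+ and activated groups (q = 4.9e-05, 6.6e-05 and 0.00026). Adcy3, an adenylate cyclase, was 1.98-fold higher in NKT-like cells than in the cultured CD4+ group (q = 1.9e-05) without any single array as well.

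Of 12 genes that switch receptors off, Rgs1, which ends signals of inhibitory G proteins, read 6.28 and 6.42 in the naive arrays and 9.18 to 11.78 in all others. It was 23.9-fold higher in NKT-like (4.58 ± 0.52, SE, q = 7.4e-05), 41.3-fold higher in cultured CD4+ (5.37 ± 0.57, q = 5.3e-05) and 17.6-fold higher in activated cells (q = 0.0015, lost without either naive array or activated replicate 1). Grk5, a receptor kinase, was 6.04-fold higher in cultured CD4+ cells than in naive ones (q = 1e-06) and 3.60-fold lower in NKT-like cells than in the cultured CD4+ group (q = 8.7e-06). Arrb2, beta-arrestin 2, was 2.87-fold higher in NKT-like cells than in the cultured CD4+ group (q = 0.00034). Rgs18 was also higher in NKT-like cells than in the cultured CD4+ group, by 5.48-fold (q = 0.002, lost without cultured CD4+ replicate 2 or 3). Rgs10 was 4.25-fold lower in NKT-like cells than in naive ones (q = 0.0019, lost without either naive array). Of 10 G protein genes 3 were higher in NKT-like cells than in naive ones. Gng2, a gamma subunit, was 8.15-fold higher (3.03 ± 0.33, q = 5.9e-05) and 7.95-fold higher in cultured CD4+ cells (q = 0.00012), in every fit without 1 array, and Gnaq was 3.34-fold higher in NKT-like cells (q = 0.00039, lost without naive replicate 2).

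**Figure D4:**
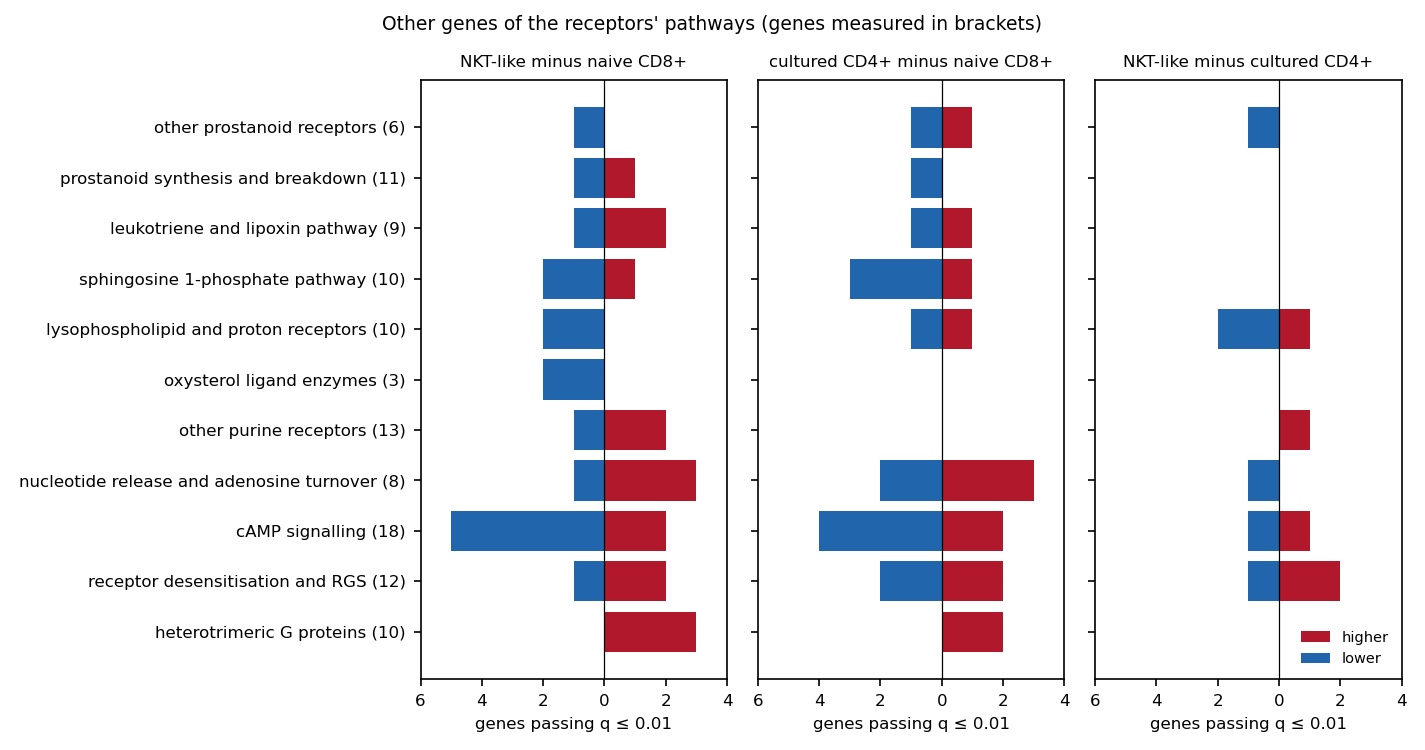
Number of genes of each pathway list that were higher (red, to the right) or lower (blue, to the left) at q of 0.01 or less in 3 comparisons, with the genes measured per list in brackets. Cyclic AMP signalling has 5 of 18 genes lower and 2 higher in NKT-like against naive cells, beside 6.73% and 11.0% of all genes.

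The counts per list depended on the naive arrays. For cyclic AMP signalling the 7 calls in NKT-like against naive cells ranged from 3 to 8 when single arrays were left out, and stood at 3 without naive replicate 1 and 4 without naive replicate 2. For nucleotide turnover the 4 calls went to 0 without either naive array. The background of 17.8% of all genes is near the share in several lists, so no list is called particular here.

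Among the 23 alternatives, the looser q threshold could not lose a call that had passed. No alternative used the dimmer Ptger3 probe set alone, on which no comparison passed. Ptger2, S1pr1 and P2ry14 have a single probe set each, so other choices of probe set left their values as they were. The filter on dim probe sets went by the highest group mean, which for Ptger3 was that of the NKT-like group. Of the 54 receptor gene results (9 genes in 6 comparisons) 21 passed, and 10 of these passed under every one of 23 alternatives. They were Ptger2 in NKT-like and in cultured CD4+ against naive and in NKT-like against cultured CD4+ cells, Ptger3 in NKT-like against naive and against cultured CD4+ cells, S1pr1 in NKT-like against naive cells, and P2ry14 in NKT-like against each other group and in cultured CD4+ against naive cells.

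**Figure D5:**
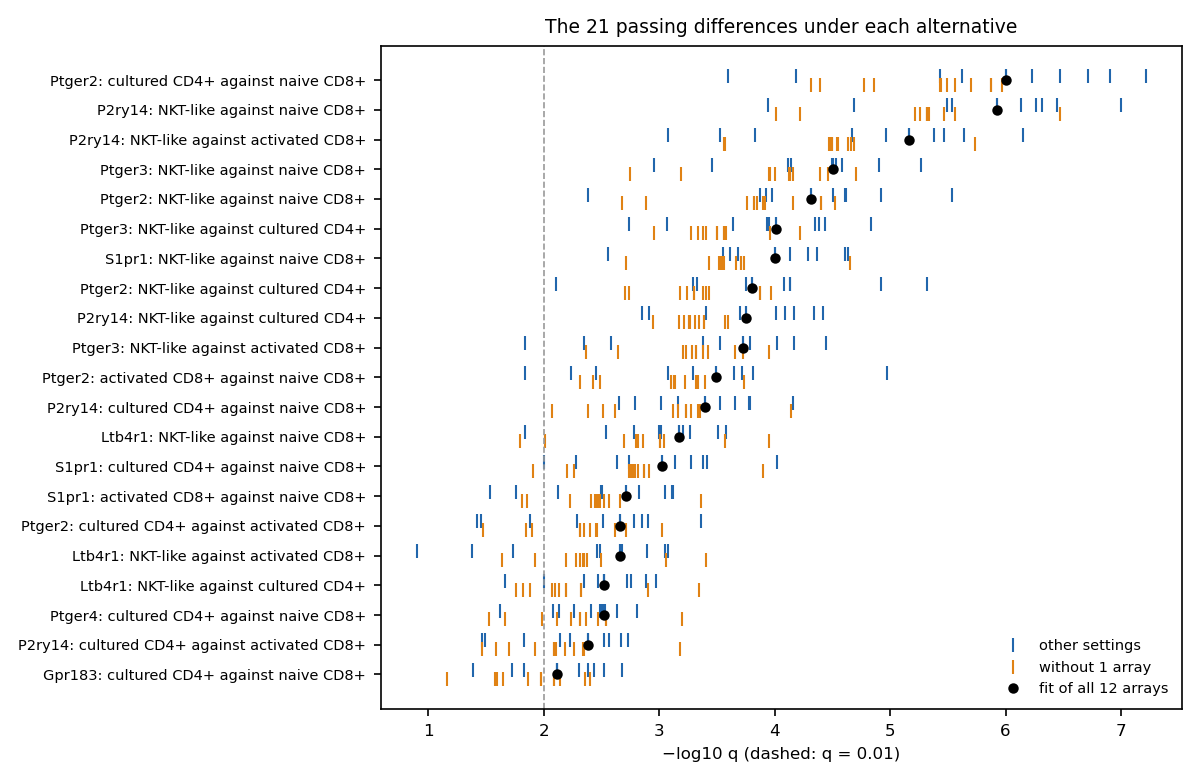
The 21 receptor gene differences that passed, with -log10 of q under each alternative. Black points are the fit of all 12 arrays, orange ticks fits without 1 array, blue ticks other settings, and the dashed line is q = 0.01. Ticks to the left of the line are alternatives in which a difference did not pass, and Gpr183 in cultured CD4+ against naive cells, at the bottom, has 10 of them.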

How the data were processed

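RNA of 12 samples was read on 1 Affymetrix array each. The authors normalized the arrays with RMA, which corrects background, equalizes distributions and summarizes probes, and deposited log2 values. The deposited arrays still differed in spread, with an SD over probe sets of 1.78 in naive replicate 2 and 2.03 in cultured CD4+ replicate 2. Activated replicates 1 and 2 had 2.00 and 1.80. For RMA no version was stated in the label or methods text used. No depth exists for arrays, and the number of arrays limits the precision. The 64 control probe sets among the 45101 were dropped. In the annotation 34945 had 1 gene symbol, 932 several and 9160 none, and only those with 1 symbol name a gene.

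The 4 groups named by the sample titles were fitted over all 12 arrays with limma 3.58.1 (R 4.3.3), with 8 residual and 3.03 prior degrees of freedom, giving 6 pairwise comparisons, with Storey q-values per comparison over 45037 probe sets and a threshold of 0.01. The code was tested on simulated data. A fold change is the antilog of a difference of group means. Near the floor of the scale they include background signal.

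Named were all listed receptors with every probe set, up to 3 passing genes with the largest change per pathway list in 3 comparisons, genes against their list, and the 3 genes most correlated with each receptor. The receptors and lists were chosen with earlier results of these data known. Alternatives were each pair of groups alone, Benjamini-Hochberg adjustment, array weights, a threshold of 0.05, quantile normalization, median centring, a robust prior with a trend, a filter on dim probe sets, other choices of probe set, a replicate block, and each array left out. Sequences are from RefSeq tables of GRCm38.p6, which held 8 of the 10 genes.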

Additional observations from a re-analysis of the deposited data

Results flagged for a closer look

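NKT-like replicate 4 read 10.8156 log2 for Ptger4 on probe set 1424208_at, apart from the other NKT-like arrays at 9.77 to 10.05. The gap was 0.739 of the range of the group, above Dixon's critical value for 5 samples. Of 14 receptor probe sets checked in this group 1 stood out in this way, and chance alone marks about 1 in 20. Without this array Ptger4 in NKT-like against naive cells did not pass either.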

How the results depend on the processing

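Among the alternatives, the looser q threshold could only add calls. Other choices of probe set left the values of genes with a single probe set as they were. Of 54 receptor gene results 21 passed, 10 of these in all 23 alternatives, and 11 were lost in at least 1. Another 4 passed in at least 1 alternative, and 0 changed direction among those that passed. With single arrays left out, the number of receptor genes passing ranged from 4 to 6 in NKT-like against naive cells (5 with all arrays), 2 to 5 in cultured CD4+ against naive (5), 1 to 2 in activated against naive (2), 3 to 4 in NKT-like against cultured CD4+ (4), 2 to 3 in NKT-like against activated (3) and 0 to 2 in cultured CD4+ against activated cells (2). A threshold of 0.05 gave 8 in NKT-like against naive cells. Each pair of groups fitted alone gave 0 in activated against naive and 0 in cultured CD4+ against activated cells, with 5 genes at an unadjusted p below 0.05 in each. Array weights gave 1 in activated against naive, 1 in NKT-like against activated and 0 in cultured CD4+ against activated cells, the last with 2 at an unadjusted p below 0.05. The cause was not tested. Median centring moved the median difference of all probe sets from -0.10 to 0.02 in both expanded groups against naive cells.

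Replicate numbers recur between groups in the titles. Deviations from group means correlated at -0.50 to 0.28 over the 13 pairs of arrays with the same number, 3 of them over 0.1. Over the 38 other pairs they correlated at -0.38 to 0.50. In a group of 2 the deviations of both arrays mirror each other, so many of these values are tied. They cannot decide whether the numbers pair the samples. The replicate block gave 4, 4, 2, 3, 2 and 0 receptor genes in the 6 comparisons in the order above, the last with 3 at an unadjusted p below 0.05. Under it Ltb4r1 did not pass in NKT-like against naive (q = 0.0145), cultured CD4+ (q = 0.0216) or activated cells (q = 0.0418), nor did Gpr183 in cultured CD4+ against naive (q = 0.0409), nor Ptger2 (q = 0.0377) and P2ry14 (q = 0.0149) in cultured CD4+ against activated cells.

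Groups of 2 arrays limit every comparison with naive or activated cells. B cell, red cell precursor and myeloid markers were highest in the naive arrays. Signals near the floor of the scale (P2rx7, Ptger3 outside NKT-like cells, P2ry14 in naive and activated cells) measure background as well as RNA.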
